A study of Mus musculus with 3 samples.

Results

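The genes described here are 31 members of the mouse cholesterol and fatty acid synthesis pathways, out of 19920 named genes on the arrays. They were chosen by name alone: every non-control probe that the array files give the symbol of a member was taken, which came to 60 probes. The members form a sterol branch of 17 genes, with 7 mevalonate steps and 10 squalene and sterol steps, a fatty acid branch of 8 genes, with 4 synthesis enzymes and 4 desaturases, and a set of 6 regulators and a sterol carrier. Gene expression was measured in mPTECs, a cell type name used here as the labels give it, taken from the kidneys of male mice aged 1 month. RNA came from cells straight after isolation (day 0) and from cells kept on plastic dishes for 1 or 3 days (day 1 and day 3), in a medium with insulin, transferrin, selenium, hydrocortisone and 1% serum. Strain, genotype, the number of animals and whether cells were pooled are not given in the sources used here. Each day was represented by 1 sample on 1 Agilent array, so there is no replicate check and no test, and every ratio describes these 3 arrays.

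Cells make cholesterol from acetyl-CoA through mevalonate, isoprenoids, squalene and lanosterol, and they make saturated fatty acids from the same acetyl-CoA through malonyl-CoA before desaturases introduce double bonds. The SREBP transcription factors, held in the endoplasmic reticulum by Insig proteins and escorted to the Golgi by Scap when sterols are low, drive most genes of both branches, usually together with NF-Y, which binds CCAAT boxes. The proximal tubule in the intact kidney lives largely on the oxidation of fatty acids taken from the blood.

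Signals are given as the processed signal over the 75th percentile of non-control spots on that array, called the relative signal, and ratios between days as log2 differences of it. A gene was represented by the brightest of its probes over the 3 arrays. The same arrays gave the ratios, so a probe could stand for its gene through its signal on the later days. On day 0 another probe was brighter for Acaca (0.212 beside 0.134) and Pmvk (3.80 beside 3.59). The rule was the same for all genes. A gene counted as having risen or fallen when its ratio reached 2-fold, a log2 ratio of 1, and smaller differences are given as values. All 31 members and all 60 member probes were well above background on the 3 arrays. The 75th percentile lay at 1184, 1509 and 1515 intensity units on days 0, 1 and 3. As a guide to technical spread, the median SD over repeated spots of a probe was 0.146 in log2 units, so spots alone leave an uncertainty of 0.207 (1.15-fold) in a ratio. Between separate probes for the same gene the median SD of a ratio was larger, at 0.36 (day 1 to day 0), 0.49 (day 3 to day 0) and 0.28 (day 3 to day 1). Relative to the 75th percentile, 12 reference genes stood higher by a median of 0.64 on day 1 and 0.74 on day 3 than on day 0, the spike-in controls stood at -0.17 and -0.42, and the median of all spots at -0.21 and -0.31, so scaling to any of these moves every log2 ratio by that amount in the opposite direction.

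On the day 3 array, 15 of the 25 enzymes of both branches exceeded their fresh-cell signal by 2-fold or more. With the regulators, 16 of 31 members had risen from day 0 and 1 had fallen, where 16.9% of the 19156 genes compared had risen and 21.8% had fallen. The members' median log2 ratio was 1.14, beside -0.11 for all genes. The largest ratios were those of Fdps, Fasn, Scd2, Lss and Sc4mol, and Acat2 was the gene that fell. At day 1 the picture was mixed: 9 members had risen and 5 had fallen past 2-fold, beside 13.7% and 15.6% of the 18957 genes compared. The median over members was 0.24, and over all genes -0.11. From day 1 to day 3, 9 members rose and 0 fell, where 7.39% and 8.28% of 19055 genes did, and 28 of 31 had a log2 ratio above 0. Their median was 0.83, beside -0.04 for all genes. Scaled to the reference genes instead, 4 members had risen and 9 had fallen on day 1, and 9 had risen and 6 had fallen on day 3. This scaling lowers the ratios to day 0 of all genes, so the shares above do not apply to these counts. Shares of all genes past 2-fold under it are not given here. At a stricter 4-fold, 3 members were higher and 2 lower on day 1 (background 3.46% and 5.32%), 7 were higher and 1 lower on day 3 (5.46% and 8.15%), and 1 was higher and 0 lower from day 1 to day 3 (1.75% and 1.36%). The ratios to day 0 share the day 0 array, and the ratios of day 1 against day 0 and of day 3 against day 1 share the day 1 array.

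**Figure D1:**
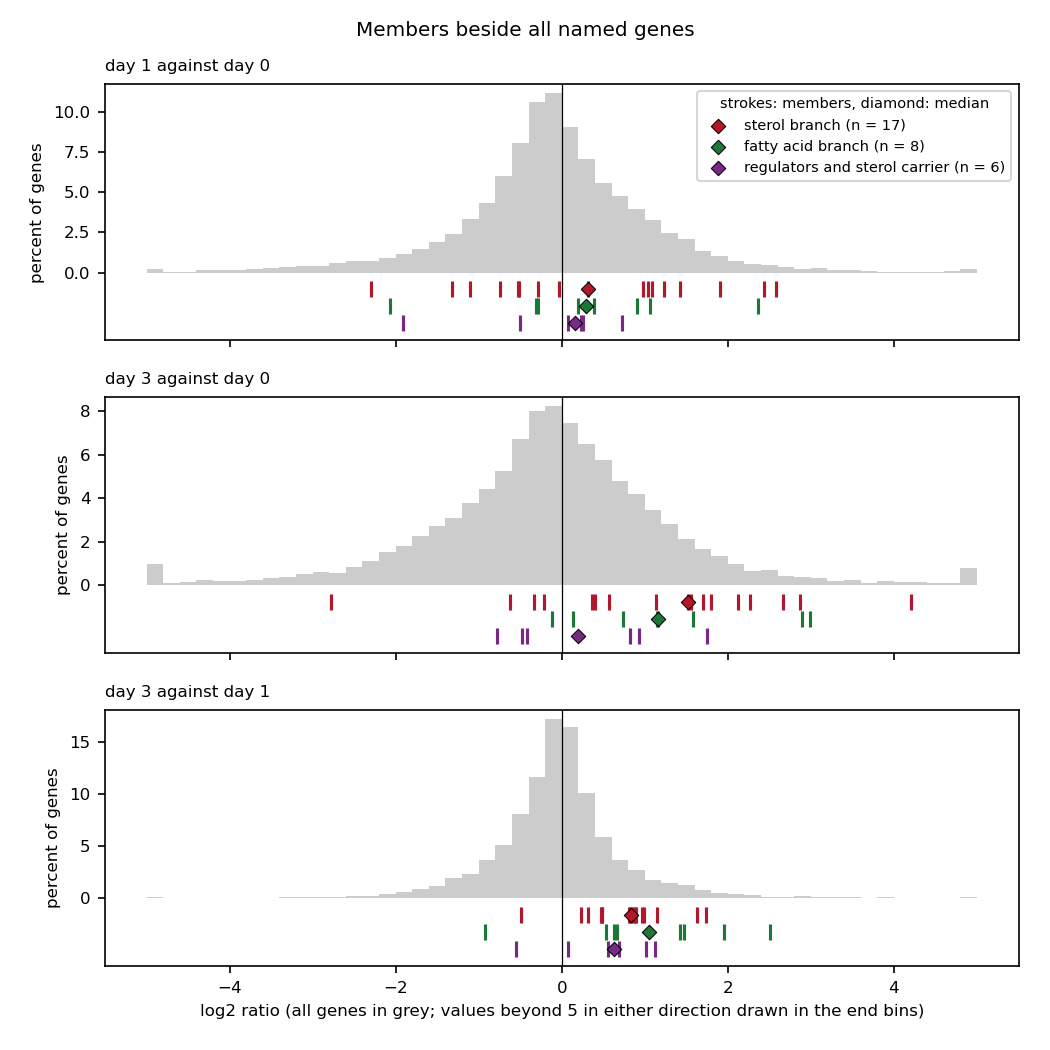
Distribution of the log2 ratio of all named genes (grey histogram, percent of genes) in each of the 3 comparisons, with the members as coloured strokes below and the median of each group as a diamond. Against day 0, the sterol branch median moved from 0.31 on day 1 to 1.52 on day 3 and the fatty acid branch median from 0.29 to 1.15 (under scaling to reference genes the day 1 medians were -0.32 and -0.35), while the median of all genes was -0.11 in both.

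RefSeq windows of 300 bases around the start site (250 before and 50 after, GRCm38.p6) were found for 24 members, Sc4mol under its present symbol Msmo1. Each was searched on both strands for the sterol regulatory element TCACNCCAC and for the NF-Y box CCAAT, and in Hmgcs1, which holds both, the matches do not overlap. The NF-Y box was found in the windows of 13 of 14 sterol branch genes, 2 of 5 fatty acid branch genes and 4 of 5 regulators, beside 41.1% of the 27025 genes with a window and 42.3% of the 13324 such genes that were well above background. The sterol regulatory element was found in 1 of 24 members, Hmgcs1, beside 1.44% of genes with a window. Of the 250 bases before the start, 6 members are shown, since they hold the element, several boxes or none, and since their ratios differ: Hmgcs1 lies at chr13:119690101-119690350 (plus strand), Mvk at chr5:114444019-114444268 (plus), Idi1 at chr13:8885356-8885605 (plus), Sc4mol at chr8:64733579-64733828 (minus), Fasn at chr11:120824548-120824797 (minus) and Acat2 at chr17:12960726-12960975 (minus). Each runs 5′ to 3′ on the strand of the gene and ends just before the start site. Capitals mark the sterol regulatory element of Hmgcs1 and the NF-Y boxes, read CCAAT on the strand of the gene and ATTGG on the other.
Hmgcs1: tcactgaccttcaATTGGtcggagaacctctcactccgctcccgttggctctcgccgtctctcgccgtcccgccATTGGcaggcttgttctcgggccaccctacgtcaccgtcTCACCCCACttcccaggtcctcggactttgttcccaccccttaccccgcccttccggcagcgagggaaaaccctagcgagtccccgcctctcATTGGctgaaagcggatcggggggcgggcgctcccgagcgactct
Mvk: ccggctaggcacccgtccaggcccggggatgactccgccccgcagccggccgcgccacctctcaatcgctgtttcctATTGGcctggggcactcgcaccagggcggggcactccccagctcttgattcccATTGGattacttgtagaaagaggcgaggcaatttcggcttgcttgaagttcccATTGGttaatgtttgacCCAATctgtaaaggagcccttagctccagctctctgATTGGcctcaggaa
Idi1: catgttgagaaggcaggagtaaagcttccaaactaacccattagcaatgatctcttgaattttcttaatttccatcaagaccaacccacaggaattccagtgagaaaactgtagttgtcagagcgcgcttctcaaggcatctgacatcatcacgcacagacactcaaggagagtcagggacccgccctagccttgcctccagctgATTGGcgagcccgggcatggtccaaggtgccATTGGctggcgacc
Sc4mol: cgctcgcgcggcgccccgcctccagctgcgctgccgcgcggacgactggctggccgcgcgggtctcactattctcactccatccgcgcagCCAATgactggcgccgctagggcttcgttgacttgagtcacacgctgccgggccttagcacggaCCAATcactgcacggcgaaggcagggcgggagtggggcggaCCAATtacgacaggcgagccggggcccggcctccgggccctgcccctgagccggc
Fasn: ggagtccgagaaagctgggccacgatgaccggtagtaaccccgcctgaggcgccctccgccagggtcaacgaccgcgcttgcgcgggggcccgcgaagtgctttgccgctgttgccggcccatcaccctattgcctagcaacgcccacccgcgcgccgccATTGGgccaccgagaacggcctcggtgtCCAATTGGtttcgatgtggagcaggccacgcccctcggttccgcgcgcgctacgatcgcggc
Acat2: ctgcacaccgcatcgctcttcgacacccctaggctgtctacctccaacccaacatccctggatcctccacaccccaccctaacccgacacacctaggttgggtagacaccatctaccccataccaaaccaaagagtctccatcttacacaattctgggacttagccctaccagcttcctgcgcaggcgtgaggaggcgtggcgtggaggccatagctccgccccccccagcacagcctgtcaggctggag
The element of Hmgcs1 began at position -137 from the start site, between boxes at -176 and -45. Mvk had 5 boxes, Sc4mol and Fasn 3 each, of which a pair overlap in Fasn, and Idi1 had boxes at -45 and -14. Acat2 was the sterol branch gene with a window and no box. Boxes were also found in genes that fell on day 1, among them Ebp and Tm7sf2. A match is a run of letters in a window and not a measured binding site. Only the exact letters given were searched, so a variant of the element would not be counted, and a window without a match is not shown to lack one.

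**Figure D2:**
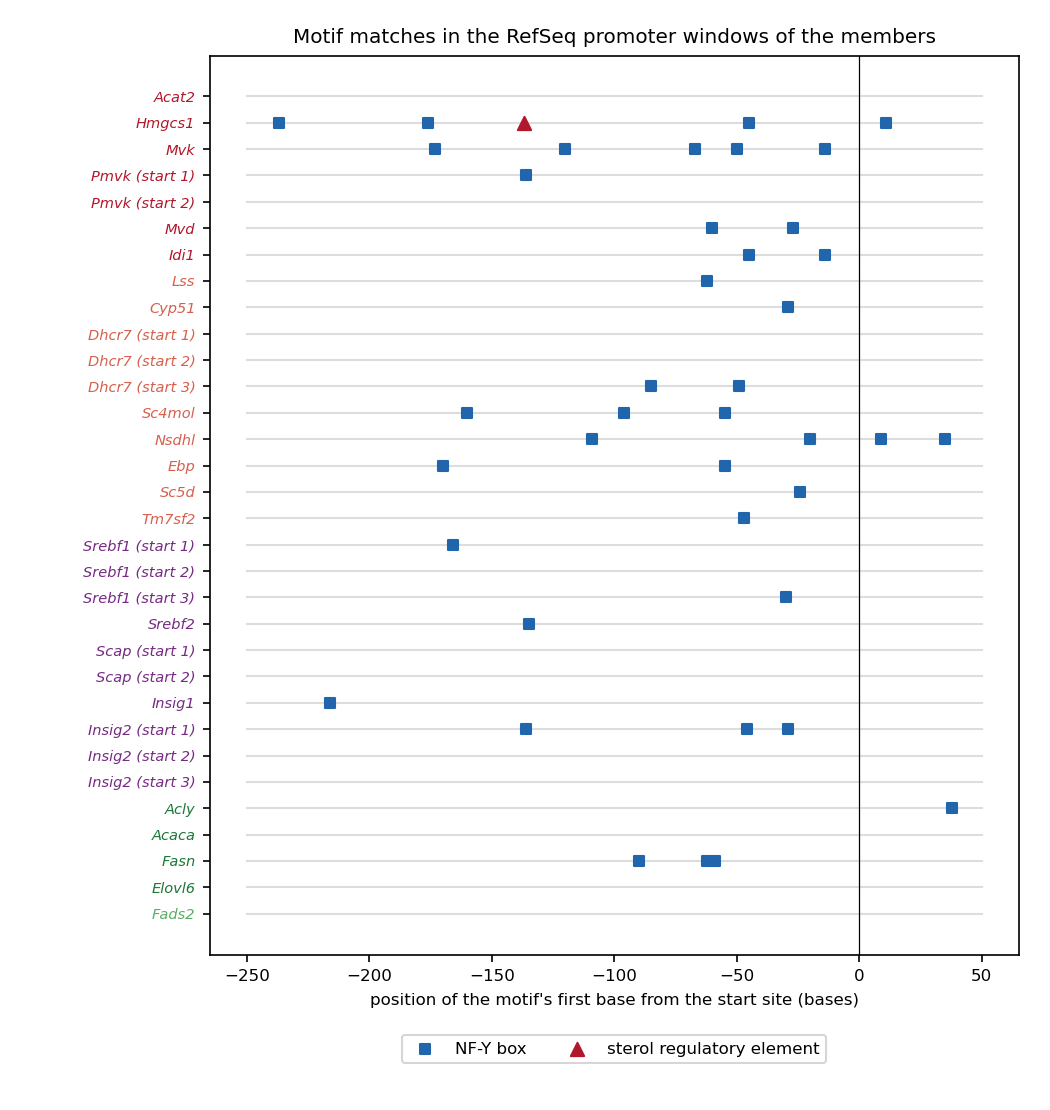
Position of each motif match, in bases from the start site (0, vertical line), in the RefSeq windows of the 24 members that have one; squares are NF-Y boxes and the triangle is the sterol regulatory element, and a member with several start sites has a line for each. Sterol branch genes except Acat2 had at least 1 box, and the triangle stands at -137 in Hmgcs1.

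Among the mevalonate steps, Idi1, Fdps, Mvk and Pmvk were at least 2-fold higher on day 3 than on day 0, and Acat2 was lower. The group's median log2 ratio was -0.03 on day 1 and 1.70 on day 3. Acat2, the cytosolic thiolase that joins acetyl-CoA units, had relative signals of 2.30, 0.47 and 0.335 on days 0, 1 and 3. Its log2 ratio to day 0 was -2.29 on day 1 and -2.78 on day 3, so it was 4.90-fold lower after 1 day and 6.87-fold lower after 3. Both probes of its close paralog Acat3 ran the same way, at -2.52 and -0.89 on day 1 and -2.89 and -1.40 on day 3, and whether signal was shared between these genes was not tested.

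Hmgcs1, the synthase that makes HMG-CoA, had relative signals of 47.1, 32.7 and 40.7, with log2 ratios to day 0 of -0.52 and -0.21. It stayed within 2-fold on every day, and its 3 probes, all placed on chromosome 13_random of mm9, ranged from -0.62 to 1.00 on day 3. Mvk, mevalonate kinase, had 0.268, 0.528 and 0.929, each day above the one before, with log2 ratios of 0.98 and 1.79. The other Mvk probe gave 1.21 and 1.92. Pmvk, the next kinase, had 3.59 and 3.51 on days 0 and 1 and 11.7 on day 3. Its rise therefore lay between day 1 and day 3, at a log2 ratio of 1.74. Mvd, the decarboxylase that forms isopentenyl diphosphate, had 1.79, 1.07 and 2.36, lowest on day 1 and 2.21-fold higher on day 3 than on day 1, with a log2 ratio of 0.40 between day 3 and day 0.

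Idi1 isomerises isopentenyl diphosphate. Its relative signal was 3.69, 9.92 and 17.7 on days 0, 1 and 3, a log2 ratio of 1.43 on day 1 and 2.26 on day 3, and its other probe gave 1.06 and 1.58. Fdps, which builds farnesyl diphosphate, had 1.73, 10.3 and 32.0, the largest rise among the members. That was 5.96-fold on day 1 and 18.5-fold on day 3, and 1.10% of all genes compared had a higher ratio on day 3. The second Fdps probe gave smaller log2 ratios, 1.30 and 1.20, with no further rise from day 1 to day 3 (-0.10).

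**Figure D3:**
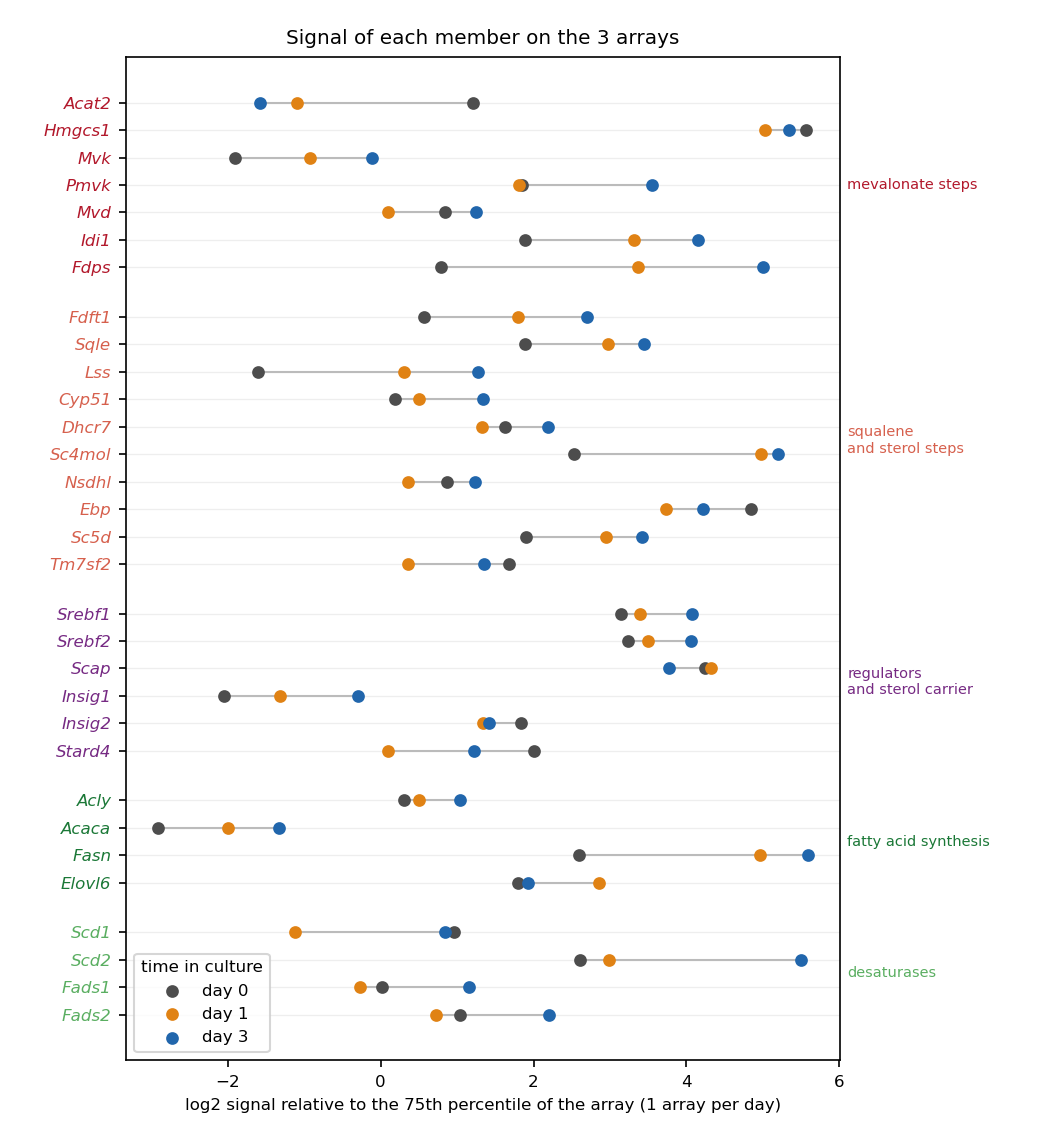
Relative signal of each member on a log2 scale (0 is the 75th percentile of the array) on day 0 (grey), day 1 (orange) and day 3 (blue), 1 array per day; the line joins the lowest and the highest day, and rows are to be read 1 at a time since probes differ in brightness. Fdps, Lss, Fasn and Sc4mol stand higher on both culture days than on day 0, Scd2 is set apart on day 3, and Acat2 moves the other way.

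Of the 10 squalene and sterol steps, 6 were at least 2-fold higher on day 3 than on day 0 and 0 were lower. Of all genes compared, 16.9% were higher and 21.8% lower. The median log2 ratio was 0.68 on day 1 and 1.33 on day 3. Fdft1, squalene synthase, had relative signals of 1.49, 3.49 and 6.49, or log2 ratios of 1.23 and 2.13. Its other probe, which was dimmer, gave 0.30 and 0.21, so the rise of Fdft1 rested on 1 probe. Sqle, squalene epoxidase, had 3.72, 7.87 and 10.9, 2.12-fold and 2.93-fold above day 0. Lss, which closes the ring to lanosterol, had 0.330, 1.23 and 2.42. All 3 Lss probes rose on day 3, with log2 ratios of 2.87, 1.56 and 1.16.

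Cyp51, the lanosterol demethylase, had 1.14, 1.42 and 2.52, and its 3 probes gave log2 ratios of 1.14 to 1.22 on day 3. Day 1 lay within 2-fold of day 0 for each of them. Sc4mol, the methylsterol oxidase now named Msmo1, had 5.79, 31.4 and 36.7. It reached 5.42-fold over day 0 within the first day and stayed there, with a log2 ratio of 0.23 from day 1 to day 3. Sc5d, a sterol desaturase, had 3.73, 7.70 and 10.7 at its brightest probe, whereas its other probe ran the other way, at -0.77 and -0.65.

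The remaining 4 sterol enzymes had their lowest signal on day 1. Ebp, the sterol isomerase, had 28.7, 13.3 and 18.7, a log2 ratio of -1.11 on day 1 and -0.62 on day 3. Tm7sf2, a sterol reductase, had 3.22, 1.28 and 2.55, with -1.32 and -0.34. These were the sterol steps at least 2-fold lower on day 1. Dhcr7, which makes cholesterol from its last precursor, had 3.08, 2.52 and 4.58, and Nsdhl, a dehydrogenase of the demethylation steps, had 1.83, 1.28 and 2.35. Both stayed within 2-fold of day 0 on each day, with day 3 log2 ratios of 0.57 and 0.36.

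**Figure D4:**
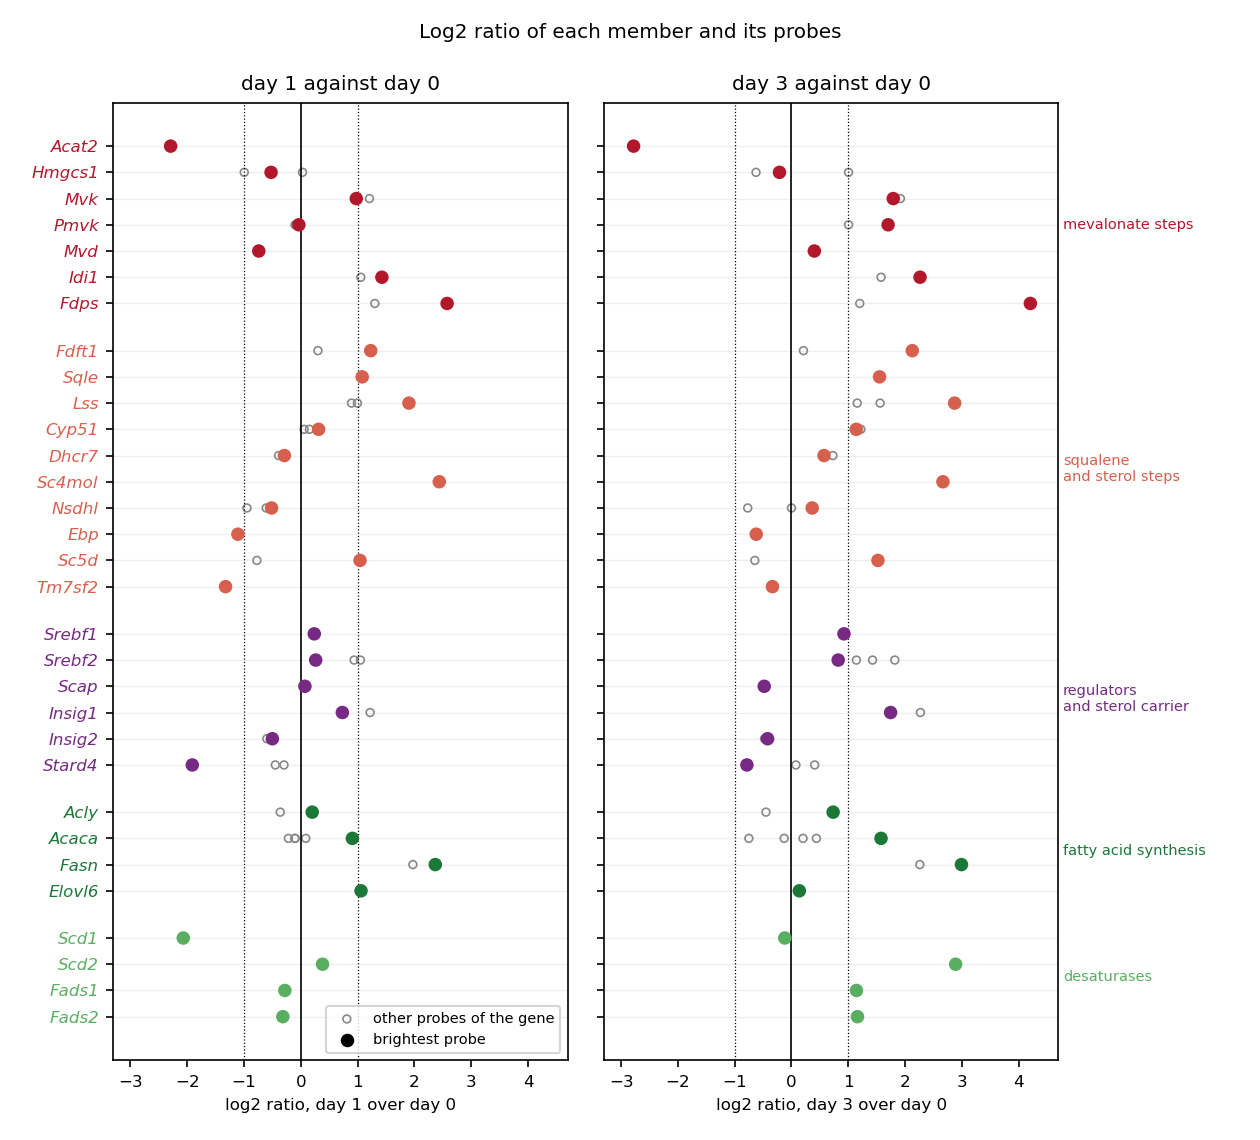
Log2 ratio of each member on day 1 (left) and day 3 (right) against day 0; filled circles are the brightest probe, which stands for the gene, open circles its other probes, and dotted lines mark 2-fold in each direction. Probes of Lss, Fasn, Idi1, Mvk and Insig1 all lie beyond the 2-fold line on day 3, while those of Sc5d, Acaca, Fdft1 and Hmgcs1 lie apart.

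In the set of regulators and the sterol carrier, 0 of 6 genes rose and 1, Stard4, fell past 2-fold on day 1. Of all genes compared, 13.7% rose and 15.6% fell. On day 3, 1, Insig1, rose and 0 fell, beside 16.9% and 21.8%. With 6 genes these counts cannot be told from the shares of all genes. The median log2 ratios were 0.15 on day 1 and 0.20 on day 3. Srebf2, the SREBP that acts mainly on sterol genes, had relative signals of 9.44, 11.3 and 16.7 on days 0, 1 and 3, log2 ratios of 0.26 and 0.82. Its other 3 probes gave 1.14 to 1.82 on day 3. Srebf1, which acts mainly on fatty acid genes, had 8.87, 10.5 and 16.8, with 0.24 and 0.92. Neither gene reached 2-fold at its brightest probe, and both were highest on day 3.

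Insig1, itself a target of SREBPs and a brake on them, had 0.242, 0.403 and 0.813. Its log2 ratio was 0.73 on day 1 and 1.75 on day 3, and the other probe gave 1.22 and 2.27. Insig2, its paralog, had 3.57, 2.52 and 2.67, with -0.50 and -0.42, and its other probe gave -0.60 and -0.47. On day 3 the ratios of this pair thus had opposite signs, also under scaling to reference genes (1.00 and -1.16). Scap had 19.0, 20.0 and 13.6, within 2-fold throughout. Stard4, which carries sterols through the cytosol, had 4.03, 1.07 and 2.34, a log2 ratio of -1.91 on day 1 and -0.79 on day 3. Its other 2 probes were nearer to day 0, at -0.45 and -0.30 on day 1.

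Fatty acid synthesis was led by Fasn, the synthase that builds palmitate. Its relative signal was 6.02, 31.1 and 47.9, 5.16-fold higher on day 1 and 7.96-fold higher on day 3, and 2.32% of all genes compared had a higher ratio on day 3. A second Fasn probe gave log2 ratios of 1.97 and 2.26. Both probes therefore rose on day 1 and lay higher still on day 3.

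The enzymes that feed Fasn moved less or less clearly. Acly, which splits citrate to give acetyl-CoA, had 1.23, 1.42 and 2.05, with log2 ratios of 0.20 and 0.73, and its dimmer probe gave -0.36 and -0.45. Acaca, which makes malonyl-CoA, had 0.134, 0.251 and 0.398, or 0.91 and 1.58. Its other 4 probes lay between -0.75 and 0.44 on day 3, so the 5 probes of Acaca did not share a direction. Elovl6, which elongates palmitate, had 3.47, 7.23 and 3.82, a log2 ratio of 1.06 on day 1 and 0.14 on day 3. It was, with Scap, 1 of 2 members highest on day 1.

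The 4 desaturases shared a late rise: each was at least 2-fold higher on day 3 than on day 1, while 0 of 4 were at least 2-fold higher on day 1 than on day 0. Of all genes compared, 7.39% were at least 2-fold higher on day 3 than on day 1, and 13.7% on day 1 than on day 0. The median log2 ratio of the desaturases from day 1 to day 3 was 1.71. Scd2, a stearoyl-CoA desaturase, had relative signals of 6.08, 7.93 and 45.1. The rise of 5.69-fold fell in the later interval, where 0.997% of all genes compared had a higher ratio. Scd1, its paralog and the main form of liver and fat, had 1.94, 0.462 and 1.79. It fell 4.20-fold by day 1 and rose 3.87-fold by day 3, which left it at a log2 ratio of -0.12 to fresh cells.

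Fads1, which desaturates polyunsaturated fatty acids, had 1.01, 0.832 and 2.23, and Fads2, which acts before it in the same chain, had 2.05, 1.65 and 4.59. The pair ran in parallel, with log2 ratios of -0.28 and -0.32 on day 1 and 1.14 and 1.16 on day 3. Each desaturase among the members had 1 probe, so these values have no second probe beside them. Of the related genes, Scd3 had 0.672, 0.401 and 0.289, a log2 ratio of -1.22 on day 3. Scd4 stood at 0.47 at its brightest probe and -1.02 at the other on day 3, and so has no settled direction. Fads3 stood at 0.41 on day 3, within 2-fold.

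Medians of the sterol and fatty acid branches are set side by side here without a test. Against day 0, the sterol branch had a median log2 ratio of 0.31 on day 1 and 1.52 on day 3, and the fatty acid branch 0.29 and 1.15. Under scaling to reference genes the day 1 medians took the other sign, at -0.32 and -0.35, and those of day 3 were 0.78 and 0.41. The difference between the branches, sterol minus fatty acid, was 0.02 on day 1, 0.37 on day 3 and -0.21 from day 1 to day 3. Each was below the median SD between probes of a gene. By the mean of probes the last difference was -0.31, past that SD of 0.28. The SD describes probes of the same gene and not a difference between medians of 17 and 8 genes. It therefore cannot decide whether the branches differ. At least 2-fold higher on day 3 than on day 0 were 10 of 17 sterol and 5 of 8 fatty acid genes, beside 16.9% of all genes compared. From day 1 to day 3, 3 of 17 sterol and 4 of 8 fatty acid genes rose at least 2-fold, beside 7.39% of all genes. The latter 4 were the desaturases. With spike-in scaling the sterol count in this interval was 11 and the fatty acid count 4, so this split depended on the scaling.

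Over the 3 days, 16 of 31 members (51.6%) had a higher signal at each step than before, where 21.1% of 19194 genes did. Another 12 (38.7%) were lowest on day 1, beside 24.7% of genes, and Acat2 was lower at each step, beside 31.2%. Scd1 and Stard4 were at least 2-fold lower on day 1 than on both other days, a course that 1.33% of all genes had. Scaled to reference genes, 11 members were higher at each step, beside 8.45% of genes, and 16 were lowest on day 1, beside 28.5%. Spike-in scaling narrowed both contrasts, with 17 members (54.8%) higher at each step, beside 37% of genes, and 11 (35.5%) lowest on day 1, beside 29.3%. Median centring gave the same counts of members, beside 31.9% and 22.9% of genes. These shares describe courses of the brightest probes and include steps smaller than the spread between probes.

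How far the calls hold across probes could be seen in 18 members with several probes, the other 13 having 1. On day 3 against day 0, 12 of 18 had all probes on the same side of 0. Of 11 of these genes past 2-fold by the brightest probe, 8 were past 2-fold in the same direction by every probe. On day 1 against day 0 that was 3 of 7, and from day 1 to day 3 it was 2 of 4. Probes of Fdft1, Sc5d and Acaca were those that did not reach 2-fold on day 3. The second Fdft1 probe was faint, at a relative signal of 0.0298 on day 0. In Sc5d, Nsdhl and Acly the probe that opposed the brightest one is annotated to another transcript record. Whether such probes measured the same transcript was not tested. The 60 probes included 14 that span more than 70 bases of mm9 and so cross introns.

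Other genes of sterol metabolism were taken from fixed lists. Counts for these and the further lists are to be read beside the shares of all genes compared. Those were 13.7% higher and 15.6% lower on day 1, and 16.9% and 21.8% on day 3. Of 5 further sterol and isoprenoid enzymes, 2 were at least 2-fold higher on day 1 and 3 on day 3, and 0 were lower. Lbr, a sterol reductase of the nuclear envelope, had a log2 ratio of 1.50 on day 3, Hsd17b7, a ketoreductase of the demethylation steps, 1.31, and Ggps1, which makes geranylgeranyl diphosphate, 1.30. Cyb5r3, a cytochrome b5 reductase, passed 2-fold on day 1 alone at its brightest probe, with 1.07 on day 1 and 0.66 on day 3. Its other probe gave 0.93 and 1.33 and so passed 2-fold on day 3 alone. The median of the 5 enzymes on day 3 was 1.30, beside 1.14 for the members.

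Genes of sterol uptake, storage and export split. Of 17, 4 rose and 7 fell by at least 2-fold on day 1, and 2 rose and 6 fell on day 3. Scarb1, the receptor for high density lipoprotein, had log2 ratios of 1.43 and 2.04, and Soat1, which esterifies cholesterol, 1.17 and 1.45 at the brightest of its 3 probes, the lowest of which gave -0.38 and -0.11. Abcg1, a sterol exporter, had 1.13 and 0.89. The probes of Npc1, which exports cholesterol from lysosomes, opposed each other, the brightest at 1.27 and 0.94 and the other at -1.44 and -2.09, so Npc1 has no settled direction here. Lower on both days were Lipa, the lysosomal acid lipase, at -1.94 and -2.64, Mylip, a ubiquitin ligase of lipoprotein receptors, at -1.79 and -3.16, and Cyp27a1, a sterol hydroxylase, at -1.52 and -1.70. Apoe, the apolipoprotein E gene, was lower too, at -1.96 and -3.79. So were Abca1, a cholesterol exporter, at -1.33 and -1.11, and Nr1h3, the liver X receptor alpha, at -1.08 and -1.71. Ch25h, another sterol hydroxylase, fell on day 1 (-1.23) and stood at -0.33 on day 3.

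Of 7 genes that process SREBPs or turn them or their partners over, 1 rose and 1 fell on each day. With 7 genes these counts cannot be told from the shares of all genes, 13.7% and 15.6% on day 1 and 16.9% and 21.8% on day 3. Mbtps2, a protease that releases SREBPs, had a log2 ratio of 2.21 on day 1 and 1.21 on day 3, from a relative signal of 0.0443 on day 0, while its other probe gave -0.09 and 0.11. Erlin1, an endoplasmic reticulum scaffold, had -1.17 and -1.46. Mbtps1, the protease that cuts first, stayed within 2-fold, at -0.51 and 0.19.

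Supply and elongation of fatty acids showed both directions, as genes at large did. Of 26 genes, 4 rose and 6 fell on day 1, beside 13.7% and 15.6% of all genes compared. On day 3, 5 rose and 8 fell, beside 16.9% and 21.8%. The enzymes that yield NADPH in the pentose phosphate pathway were among the higher ones, G6pdx at 2.22 and 2.26 and Pgd at 3.08 and 2.40. So were Mid1ip1, which activates acetyl-CoA carboxylase, at 1.28 and 1.92, and Acsl5, an acyl-CoA synthetase, at 1.18 and 1.76. Hsd17b12, a reductase of the elongation cycle, had 1.14 on day 3 at its brightest probe and -1.37 at the other, and so has no settled direction. Lower were Mlxipl, the carbohydrate response factor ChREBP, at -3.39 and -2.84, Acss2, which makes acetyl-CoA from acetate, at -2.18 and -2.06, and Acsl1 at -2.48 and -2.95. Acacb, the mitochondrial paralog of Acaca, had -1.34 and -2.19 at its brightest probe, but its other probe gave 0.33 and 0.30. Elovl2 fell to -2.42 and -3.44, Thrsp, a lipogenic protein, to -1.21 and -1.08, and Oxsm, a mitochondrial synthase, to -2.08 on day 3, where its other probe gave 0.06. The other elongase genes on the list, Elovl1, Elovl3, Elovl4, Elovl5 and Elovl7, stayed within 2-fold of day 0 at their brightest probes, between 0.07 and 0.96 on day 3. The other Elovl7 probe gave -0.78 and -1.64, so Elovl7 has no settled direction. Elovl3 and Elovl4 were faint, at relative signals of 0.0168 and 0.0118 on day 0, where Elovl4 was not well above background.

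In glycerolipid synthesis, 3 of 9 genes rose and 2 fell on both days. Plin2, the coat protein of lipid droplets, had log2 ratios of 1.92 and 1.87, Lpin3 of 1.44 and 1.61, and Agpat2, an acyltransferase, of 1.03 and 1.23. Dgat2, which completes triglycerides, had -1.39 and -2.80, and Lpin1, a phosphatidate phosphatase, -2.12 and -1.48.

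Signals of cell type markers shifted over the same days. All 15 proximal tubule markers were well above background on day 0 and all were at least 2-fold lower on both later days, with median log2 ratios of -2.87 and -5.59, and their summed relative signal was 1165, 198 and 20.7 on days 0, 1 and 3. The transporters Slc34a1, at 111, 13.5 and 0.264, and Slc5a2, at 46.1, 11.3 and 0.795, show the size of that fall. All 10 markers of the loop of Henle and distal nephron were also present on day 0 (summed 422) and fell (96.3 and 17.6), among them Umod, a marker of the loop, so transcripts of these segments were present in the day 0 sample. Podocyte markers fell, 5 of 5 on both days, with sums of 9.02, 1.82 and 2.35. Endothelial markers fell at least 2-fold in 2 of 5 genes on day 1 and 5 of 5 on day 3, with sums of 21.3, 11.2 and 4.16. Of 5 fibroblast and pericyte markers, 3 were higher on day 3, Col1a1 at a log2 ratio of 2.83, Col1a2 at 2.01 and Col3a1 at 1.61, although the lowest of 3 probes gave -0.21 for Col1a1 and -0.25 for Col3a1, while Pdgfrb and Dcn stood at -0.88 and -0.96, and the sums were 5.07, 4.15 and 10.7. Of 6 macrophage markers, 1 rose (Cd68, 3.61 and 2.34) and 1 fell (Ptprc, -1.49 and -1.59, with another of its 4 probes at 3.15 on day 1), with sums of 13.3, 9.02 and 15.0. All these marker counts are to be read beside the shares of all genes compared. Those were 13.7% higher and 15.6% lower on day 1, and 16.9% and 21.8% on day 3. The macrophage counts cannot be told from these shares. The 6 adipocyte markers, cells known for high fatty acid synthesis, were at or below 0.181 on each array, with sums of 0.488, 0.367 and 0.393. In such samples fewer cells of a type and less RNA per cell cannot be told apart, and the part of these shifts in the members' ratios was not tested.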

How the data were processed

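Cy3-labelled cRNA was made from total RNA by linear amplification, per the labels' protocols, with 1 sample on each Agilent mouse array. Images were read with Feature Extraction 10.5.1.1 per the file headers, but version 9.1 per the submitters' processing notes. The deposited array files hold intensity values: the processed signal, from which background and spatial trends had been removed within each array only, the mean signal and the local background. As their headers show, no multiplicative trend surface was fitted on the day 3 array, whereas the other arrays have one, and probe positions are on mm9. Flags of another kind, set to 0 or 1 in the deposited files, mark spots well above background, saturated (0 spots) or outlying. The authors' value table holds a ratio on a linear scale, and each of its 43379 values per array was found to match, to within 0.001, the processed signal over the array's 75th percentile; its column medians were 0.187, 0.162 and 0.151.

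The log2 ratio of the processed signal over the 75th percentile of the 43379 non-control spots was computed here (Python 3.11.15, pandas 2.3.3, numpy 2.4.6), with outlier spots left out (94, 102 and 85 on days 0, 1 and 3) and spots of a probe averaged. Gene names are those of the array design, kept where the RefSeq table held them by accession, symbol or unambiguous synonym, which left 19920 of 28138 names. A gene entered a comparison, and was counted at 2-fold, if well above background on 1 or both of its arrays. With 1 array per day, the number of arrays limits the precision and no error between samples can be given. The counting was run on simulated arrays with known folds and the spread between spots alone. Those runs check the code and cannot show how far calls hold across samples or probes. The alternatives used limma 3.58.1 in R 4.3.3 for normexp (offset 50) and quantile normalization, and motifs were searched in RefSeq windows.

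The members, lists, branches and alternatives were chosen with earlier results of these data known. All members are named; genes of the other lists are named where past 2-fold or where they are paralogs of a member, while other examples were picked with their values known. Some genes of the lists are not reported here and are outside the counts. The protein comparison planned for paralog pairs was not made.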

Additional observations from a re-analysis of the deposited data

How the results depend on the processing

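With 1 array per day there is no spread between replicates, so a median was taken as unmoved when it stayed within the median SD between probes of a gene (0.36, 0.49 and 0.28 in the 3 comparisons). No paired analysis was possible because each day has 1 sample. Under median centring, quantile normalization, spike-in scaling, normexp, the authors' value table, the mean of probes and no filter, the medians of both branches and their difference stayed within it. Scaling to 12 reference genes did not: the sterol and fatty acid medians against day 0 became -0.32 and -0.35 on day 1, both with the other sign, and 0.78 and 0.41 on day 3. This scaling used the median of the genes' ratios, a definition chosen after the data had been seen. The median of their signals, added as a further alternative, put the medians at -0.49 and -0.51 on day 1 and 0.96 and 0.59 on day 3. Median centring, spike-in scaling and reference gene scaling shift all genes of an array alike, so they could not change the difference between branches. The authors' value table matched the values used here to within 0.001, and all members were well above background. That table and the lack of a filter were therefore close to repeats of the main setting.

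Under the reference genes' ratios, members at least 2-fold higher and lower numbered 4 and 9 on day 1 and 9 and 6 on day 3, and 1 was lower from day 1 to day 3. Under their signals these were 4 and 12 on day 1 and 4 lower on day 3, with 17 higher from day 1 to day 3. Spike-in scaling also gave 17 in that last comparison. Shares of all genes past 2-fold under these scalings are not given beside the counts. At 4-fold, 3 were higher and 2 lower on day 1, 7 were higher on day 3 and 1 from day 1 to day 3, where 0 sterol genes remained. Normexp left 3 fatty acid genes higher on day 3, and median centring gave 5 sterol genes from day 1 to day 3. Under all 9 alternatives at 2-fold, Mvk, Idi1, Fdps, Fdft1, Lss, Sc4mol, Insig1, Fasn and Scd2 stayed higher on day 3 and Acat2 lower. The same held on day 1 for Fdps, Lss, Sc4mol and Fasn, higher, and Tm7sf2, Acat2 and Scd1, lower. No called member changed sign under any of the 9 alternatives. Of these alternatives, the authors' value table and no filter were close to repeats of the main setting. Sc4mol, Scd2, Acat2, Tm7sf2 and Scd1 have 1 probe, so the mean of probes could not change them. Fdft1 passed 2-fold by the mean of probes on day 3 although its other probe gave 0.21.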
